A study of Rattus norvegicus with 9 samples.

Results

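The genes described here are 37 genes of fat cells and of lipid storage, measured in whole rat prostate on Agilent one-colour arrays. They were chosen as 21 genes of white fat, 2 of brown fat and 14 general lipid genes, and each was found through the RefSeq transcript that its array probe carries. A probe was matched for 34 of the 37 genes, out of 15163 gene symbols with a probe on the array. Of the 34 genes, 30 were bright enough to be tested in at least 1 comparison, out of 20046 genes and unnamed transcripts tested.

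The study asked what the metabolic hormone ghrelin does in the enlarged prostate. Male Sprague Dawley rats, 6 weeks old when they entered the study, formed 3 groups, and prostates of 3 rats per group were hybridised, one array per rat. Sham rats were operated on without castration and received corn oil under the skin and water by mouth. BPH rats, a model of benign prostatic hyperplasia, were castrated and received dihydrotestosterone at 3 mg/kg under the skin for 4 weeks, with water by mouth. BPH+ghrelin rats had the same castration and dihydrotestosterone and received rat ghrelin at 20 nmol/kg by mouth during the last 2 weeks. The dose and route of ghrelin are taken from the study's methods, and a figure legend of the study gives another dose and route. Castration and androgen replacement always came together, so the difference between BPH and sham holds both. By treatment, only the BPH+ghrelin and BPH groups differ by ghrelin alone. Their arrays, however, lay on different slides, as inferred from scan times, except for BPH+ghrelin 1.

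Fat cells store triglyceride in a single large droplet coated by perilipins and proteins of the CIDE family. They take up fatty acids that lipoprotein lipase frees from circulating lipoproteins, esterify them through the DGAT enzymes and release them again through a chain of lipases. The nuclear receptor PPARG, working with C/EBP proteins, keeps these genes on, and the cells secrete hormones such as adiponectin, leptin, resistin in rodents, and adipsin. Brown fat adds UCP1, which turns stored fuel into heat. The prostate is embedded in fat, and a piece of whole prostate may carry some of it. In such bulk tissue, fewer fat cells and less RNA per fat cell cannot be told apart.

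The start regions of 4 of these genes are shown because the array values below turn on them. Adipoq and Rbp4 had the widest spread between rats, Cidec codes for a defining protein of the fat droplet, and Pparg for the receptor that drives the fat cell program. Each sequence holds the 250 bases before the annotated start, 5′ to 3′ on the strand of the gene, from RefSeq on build GRCr8, and the capitals mark matches to the motifs searched. The Adipoq sequence lies on the minus strand at chr11:91240170-91240419, Cidec on the minus strand at chr4:148137116-148137365, the second of the Pparg starts on the plus strand at chr4:150154522-150154771 and Rbp4 on the minus strand at chr1:245313552-245313801.
Adipoq: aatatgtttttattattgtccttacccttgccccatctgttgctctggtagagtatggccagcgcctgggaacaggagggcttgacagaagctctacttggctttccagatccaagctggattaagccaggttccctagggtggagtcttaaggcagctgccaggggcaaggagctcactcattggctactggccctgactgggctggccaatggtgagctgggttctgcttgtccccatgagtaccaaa
Cidec: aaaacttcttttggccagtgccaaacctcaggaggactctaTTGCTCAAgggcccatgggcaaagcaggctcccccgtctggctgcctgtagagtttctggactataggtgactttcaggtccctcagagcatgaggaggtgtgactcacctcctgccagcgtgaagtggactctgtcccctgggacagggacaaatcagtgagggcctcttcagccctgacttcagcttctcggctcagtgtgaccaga
Pparg: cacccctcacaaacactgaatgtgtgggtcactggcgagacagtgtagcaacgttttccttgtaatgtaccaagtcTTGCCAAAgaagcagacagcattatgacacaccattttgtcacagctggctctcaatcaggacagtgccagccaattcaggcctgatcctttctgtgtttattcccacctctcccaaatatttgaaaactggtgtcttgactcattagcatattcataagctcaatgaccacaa
Rbp4: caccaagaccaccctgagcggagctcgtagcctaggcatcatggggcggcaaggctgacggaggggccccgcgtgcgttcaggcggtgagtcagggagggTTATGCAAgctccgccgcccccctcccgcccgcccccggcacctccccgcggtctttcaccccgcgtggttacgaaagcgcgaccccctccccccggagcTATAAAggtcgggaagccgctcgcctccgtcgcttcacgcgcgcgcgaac

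Motifs were searched on both strands of these windows. A C/EBP motif, TTNNGCAA, was found at positions -209 to -202 of Cidec, at -174 to -167 of Pparg and at -150 to -143 of Rbp4, where -1 is the last base before the start. Rbp4 also held a TATA box, TATAAA, at -50 to -45, and the Adipoq window held none of the motifs. Promoter entries, 31 in all, were found for 25 of the 37 genes. The C/EBP motif was present in 5 of the 31 promoters (1 each of Cidec, Lep, Plin1, Pparg and Rbp4) and in 9.22% of all 33469 promoters, and TATAAA in 6 of the 31 (1 each of Angptl4, Cd36, Cebpa, Cebpb, Rbp4 and Ucp1) and in 12.9% of all promoters. The direct repeat bound by PPARG with its partner RXR, with 1 free base in each half-site, was found in none of the 31 and in 0.368% of all promoters, and its strict form, which the relaxed one includes, in none and in 0.0508%.

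Signals are given as log2 of the scanner's processed signal after quantile normalization, so that 1 unit is a 2-fold difference, and levels of different probes were not compared. Between 61.4% and 75.05% of the probes of an array were well above background, the scanner software's own call. The arrays fell into 3 sets by the scan time in the scanner's files. Arrays with the same scan time were taken to share a slide, and the sets are called slides here. BPH 1 to 3 and BPH+ghrelin 1 shared slide 1, BPH+ghrelin 2 and 3 and sham 1 and 2 shared slide 2, and sham 3 was on slide 3, so that no slide held both sham and BPH arrays. Sham 3, BPH 2 and BPH+ghrelin 2 lay between the other arrays of their group for 72.9%, 71.0% and 68.7% of all genes. Of 8 genes of the prostate epithelium, 4 were above 0 between BPH and sham, with a median difference of -0.05, 1 was called higher and 2 lower, and their array medians overlapped (0.09 to 0.18 in sham and -0.26 to 0.32 in BPH). Their summed signal, in which single bright secretory genes such as Pbsn weigh most, was 220843 to 233142 in sham, 83155 to 121045 in BPH and 87307 to 103587 in BPH+ghrelin.

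The fat cell label held in part. Of the 6 defining markers fixed for fat cells, Adipoq, Retn and Cfd were well above background on 8, 9 and 9 of the 9 arrays and Cidec on 6, whereas Lep was well above background on 0 arrays and Plin1 had no matched probe. Adiponectin, resistin, adipsin and fat-droplet transcripts were thus measured, and the leptin transcript was not detectable at the sensitivity of these arrays. Retn stayed at 11.96 in sham 1 and 12.05 in BPH+ghrelin 1, where Adipoq was only 3.28 and 0.58. The detection of Retn thus did not follow Adipoq and is not read as support for the label. Among the other members, Cebpa, Ucp1 and Plin5 were not well above background on any array, and Plin4 and Pnpla3 had no matched probe.

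The white fat genes differed widely between rats of the same group. The 17 white fat members tested had a median deviation from their 9-array mean of -1.36 log2 units in sham 1, 0.99 in sham 2 and -0.15 in sham 3. In BPH the same median was 1.06, 0.48 and -0.07 in rats 1 to 3, and in BPH+ghrelin it was -1.27, 0.07 and 0.81. Sham 1 was the lowest sham array for 13 of 17 white fat genes, BPH+ghrelin 1 the lowest of its group for 15 and BPH 3 the lowest of its group for 15. Over all genes, these arrays were the lowest of their group for 36.6%, 44.2% and 42.5%. Sham 1 was on slide 2, and BPH 3 and BPH+ghrelin 1 were both on slide 1. In the order given, these arrays had 71.3%, 71.2% and 73.2% of probes well above background. Sham 2, the highest sham array for 14 of 17 white fat genes, had the lowest share of the 9 arrays, at 61.4%. BPH 1 and BPH+ghrelin 3, each the highest of its group for 15, had 73.1% and 69.5%. The part of slide and signal quality in the white fat values was not tested.

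**Figure D1:**
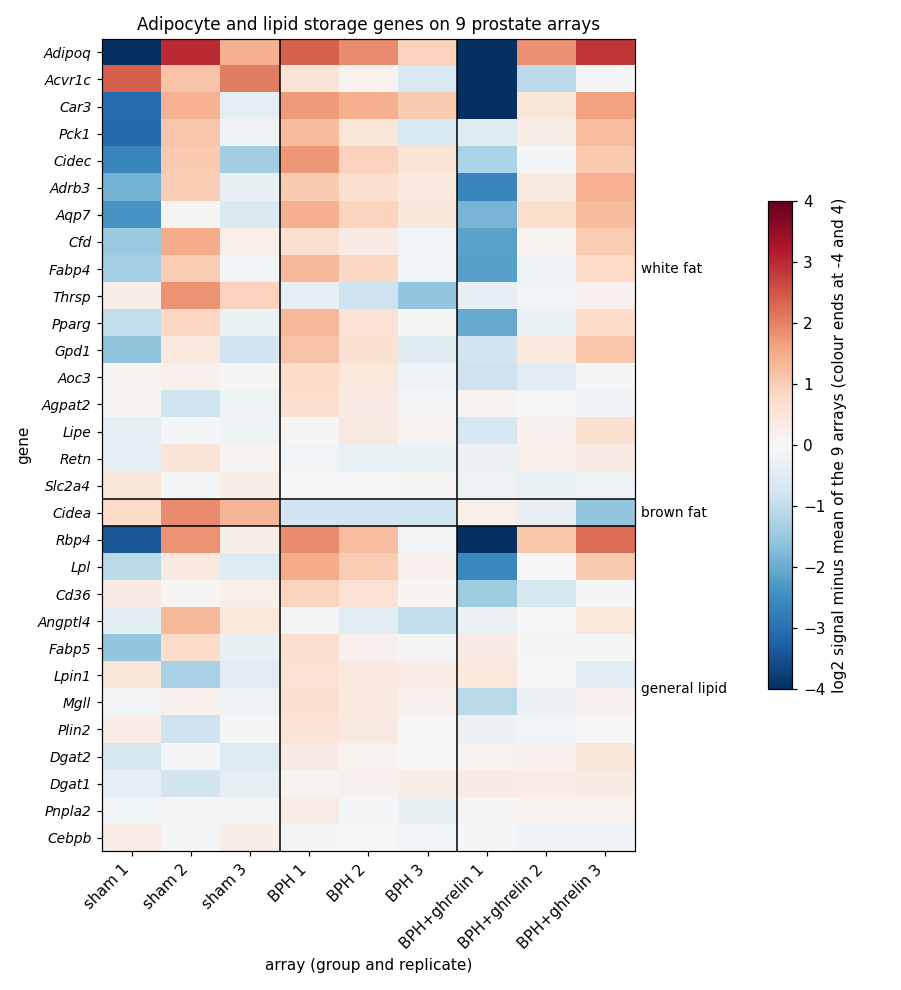
Log2 signal of the 30 tested genes (rows, by class) on the 9 arrays (columns), each as the difference from the gene's mean over the arrays, with blue for lower and red for higher. Sham 1 and BPH+ghrelin 1 stand out in blue for Adipoq, Car3, Rbp4 and Adrb3, whereas Cidea is red in sham and not in BPH.

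Among the secreted proteins, Adipoq, which codes for the fat cell hormone adiponectin, was 3.28, 12.03 and 10.48 in sham rats 1 to 3. It was 11.43, 10.95 and 9.99 in BPH and 0.58, 10.88 and 11.94 in BPH+ghrelin. A single array in sham and a single one in BPH+ghrelin were low and the other 7 were at or above 9.99, so that the groups overlapped. With signals under the lowest one well above background on an array raised to that level, the range spanned 431-fold in sham, 2.71-fold in BPH and at least 748-fold in BPH+ghrelin. This was the widest range of all 20046 genes in the sham group and in the BPH+ghrelin group, and the 597th widest in BPH. The scanner's processed signal before normalization was 10.8 in sham 1 and 1.44 in BPH+ghrelin 1, against 1163 to 4034 on the other 7 arrays. In BPH+ghrelin 1 the probe was not well above background.

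Cfd, the serine protease adipsin of the complement system, was 9.42, 12.40 and 11.11 in sham. It was 11.54, 11.23 and 10.81 in BPH and 8.75, 10.97 and 11.91 in BPH+ghrelin. The same arrays were low as for Adipoq, but at a smaller span of 7.89-fold in sham and 8.97-fold in BPH+ghrelin, against 1.66-fold in BPH. Rbp4, the plasma carrier of retinol that liver and fat cells secrete, was 3.99, 9.23 and 7.65 in sham. In BPH it was 9.30, 8.67 and 7.37 and in BPH+ghrelin 2.41, 8.52 and 9.66. Its range of 37.7-fold was the 19th widest in sham, and its range of at least 153-fold the 3rd widest in BPH+ghrelin.

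Retn, the rodent fat cell hormone resistin, did not share this spread. It was 11.96, 12.81 and 12.38 in sham, 12.18, 12.03 and 12.02 in BPH and 12.05, 12.50 and 12.61 in BPH+ghrelin. Its lowest value in sham and in BPH+ghrelin was again in rat 1, but its full range over the 9 arrays was 1.80-fold, the 12790th widest of all genes. Lep, the satiety hormone leptin, lay between 0.71 and 2.30 and was not well above background on any array. Angptl4, an inhibitor of lipoprotein lipase, was highest in sham 2 at 10.64 and lowest in BPH 3 at 8.36.

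**Figure D2:**
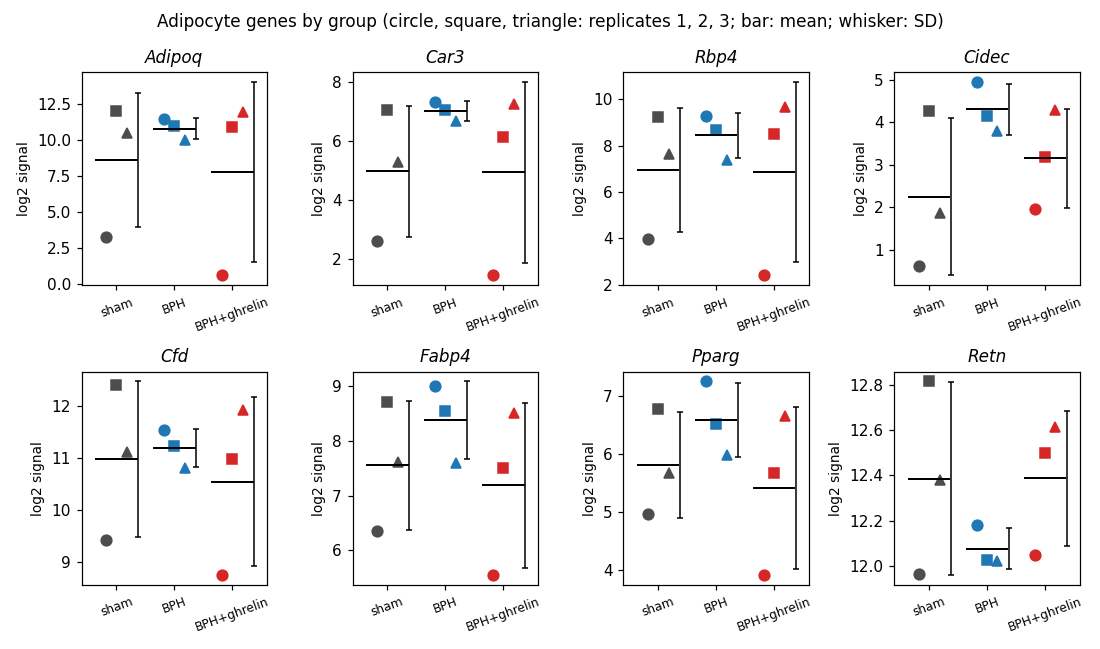
Log2 signal of 8 genes by group, with each rat as a symbol (circle, square and triangle for replicates 1, 2 and 3), the mean as a bar and the SD as a whisker (n = 3). Adipoq ran from 9.99 to 12.03 on 7 arrays and was at 3.28 in sham 1 and 0.58 in BPH+ghrelin 1, whereas Retn stayed between 11.96 and 12.81.

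Of the droplet proteins, Cidec, which enlarges the single droplet of the white fat cell, was 0.62, 4.28 and 1.85 in sham. It was 4.96, 4.16 and 3.80 in BPH and 1.97, 3.19 and 4.29 in BPH+ghrelin. Only 1 sham array and 2 BPH+ghrelin arrays were well above background, against 3 in BPH, and sham 2 reached into the BPH range. Plin2, the droplet coat protein of most cell types, was between 10.01 in sham 2 and 11.38 in BPH 1, and its lowest array was thus one where Adipoq was high.

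Of the 6 uptake and carrier genes, Fabp4, Lpl and Aqp7 were lowest in rat 1 of both sham and BPH+ghrelin, and Cd36 in rat 1 of BPH+ghrelin only. Fabp4, the fatty acid carrier of fat cells, macrophages and small-vessel endothelium, was 6.35, 8.71 and 7.61 in sham, 9.00, 8.54 and 7.60 in BPH and 5.54, 7.51 and 8.51 in BPH+ghrelin. Lpl, lipoprotein lipase, was 6.47, 7.93 and 7.03 in sham, 9.02, 8.54 and 7.71 in BPH and 4.96, 7.55 and 8.58 in BPH+ghrelin. The BPH+ghrelin ranges of Fabp4 and Lpl, of 7.84-fold and 12.4-fold, were the 43rd and 24th widest of all genes. Aqp7, the glycerol channel of fat cells, was 0.62, 3.03 and 2.39 in sham, 4.39, 3.85 and 3.43 in BPH and 1.11, 3.68 and 4.24 in BPH+ghrelin. No sham array was well above background for Aqp7, so that it was tested only through the BPH group and did not pass (adjusted p = 0.208, limma), and its signal there was bounded at 1.73-fold or more above sham.

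Cd36, the fatty acid translocase, shared the rat order of Fabp4 and Lpl in BPH and BPH+ghrelin but not in sham. It was 8.62, 8.34 and 8.50 in sham, 9.16, 8.86 and 8.36 in BPH and 6.85, 7.65 and 8.23 in BPH+ghrelin, so that BPH+ghrelin lay below both other groups without overlap. A second Cd36 probe differed by -1.35 log2 units between BPH+ghrelin and BPH and by -0.88 between BPH+ghrelin and sham. Fabp5, a carrier found in epithelia and fat cells, was lowest in sham 1 at 8.97 and between 10.22 and 11.24 elsewhere. Slc2a4, the insulin-responsive glucose transporter of fat and muscle, ran from 5.87 to 6.60 on all arrays.

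Among the genes of triglyceride synthesis, Pck1, whose enzyme supplies glycerol phosphate in fat cells, was 0.70, 4.89 and 3.65 in sham, 5.05, 4.28 and 3.18 in BPH and 3.32, 4.07 and 5.02 in BPH+ghrelin. Rat 1 was again the lowest of sham and of BPH+ghrelin, with a BPH+ghrelin range of 3.23-fold, the 292nd widest of all genes. Gpd1, which makes glycerol 3-phosphate, was lowest in sham 1 at 5.41 and highest in BPH 1 at 8.14. Agpat2 and Lpin1, later steps of the pathway, were both lowest in sham 2, at 5.41 and 3.09, and differed by 2.72-fold and at least 2.58-fold between the lowest and the highest of the 9 arrays. The lipases Pnpla2, Lipe and Mgll, which release fatty acids from stored triglyceride in that order, spanned 1.49-fold, 2.54-fold and 3.27-fold over the 9 arrays. Lipe and Mgll were lowest in BPH+ghrelin 1, and Pnpla2 was lowest in BPH 3. A second Lipe probe was well above background on 1 array.

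Among receptors and transcription factors, Pparg was 4.96, 6.77 and 5.67 in sham, 7.24, 6.51 and 5.97 in BPH and 3.91, 5.66 and 6.66 in BPH+ghrelin. Adrb3, the beta-3 adrenergic receptor that triggers lipolysis in rodent fat, was 2.63, 5.52 and 4.22 in sham, 5.59, 5.19 and 4.93 in BPH and 1.93, 4.88 and 5.91 in BPH+ghrelin. Both were lowest in rat 1 of sham and of BPH+ghrelin. Cebpb, a C/EBP factor of many tissues, varied little, by 1.36-fold over the 9 arrays.

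Acvr1c, the type I activin receptor ALK7, did not follow the rat order of Pparg and Adrb3 in sham. It was 8.43, 7.19 and 8.12 in sham, 6.57, 6.19 and 5.45 in BPH and 1.52, 5.00 and 5.99 in BPH+ghrelin. It was thus highest in sham 1, where most white fat genes were low, and lowest in BPH+ghrelin 1, where it was not well above background. Slc2a4 and Cebpb were also highest in sham 1, at 6.60 and 13.32. A second Acvr1c probe was lower in BPH than in sham by a difference of -1.51 and in BPH+ghrelin than in sham by a difference of -2.95.

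Of the remaining enzymes, Car3, the carbonic anhydrase that is abundant in fat and slow muscle, was 2.62, 7.05 and 5.28 in sham. It was 7.34, 7.07 and 6.68 in BPH and 1.43, 6.13 and 7.26 in BPH+ghrelin, with ranges of at least 19.9-fold, 1.58-fold and at least 29.3-fold. The striated muscle list had median deviations of 0.85, -0.36 and 0.74 in sham, -0.66, -0.62 and 0.17 in BPH and -0.39, -0.08 and -0.22 in BPH+ghrelin. By the median it was thus highest in sham 1 and lowest in BPH+ghrelin 1 within their groups, and Car3 was lowest of its group on both of these arrays. The summed signal of the list was highest of the group on both, at 1107, 626 and 938 in sham and 611, 591 and 578 in BPH+ghrelin. The part of muscle in the Car3 values was not tested. Aoc3, an amine oxidase of fat cells and smooth muscle, lay between 9.19 in BPH+ghrelin 1 and 10.76 in BPH 1.

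In numbers, 7 of 17 white fat genes (41.2%) spanned at least 4-fold between the sham rats, against 4.02% of all genes. In BPH+ghrelin the count was again 7 (41.2%, against 0.828% of all genes), and in BPH it was 0 (against 1.18%). Of the 12 general lipid genes, 2 spanned at least 4-fold in sham, 2 in BPH+ghrelin and 0 in BPH. Endothelial genes had array medians of 0.10 to 0.31 in sham, 0.14 to 0.39 in BPH and -0.45 to -0.34 in BPH+ghrelin, and macrophage genes of 0.10 to 0.19, -0.03 to 0.44 and -0.35 to -0.25. Both lists, and the prostate epithelium list, ran in the white fat order in BPH but not in sham or BPH+ghrelin. The medians of 4 mesothelial genes, which mark the lining of the body cavity and its fat, ran in the same order as those of white fat within each group, at 0.44, 1.17 and 0.64 in sham, 0.04, -0.26 and -0.99 in BPH and -0.72, -0.58 and -0.03 in BPH+ghrelin. Their summed signal ran in that order in BPH (3631, 3090 and 2502). It ran in the reverse order in sham (2846, 1502 and 2430) and in BPH+ghrelin (3074, 2792 and 2563). The medians of 3 lymphoid genes ran in the white fat order in sham (-0.14, 1.22 and 0.46) and in BPH (0.37, 0.05 and -0.54) and were -0.22, -0.35 and -0.11 in BPH+ghrelin, with a summed signal of 4928 to 25259, 124 to 997 and 137 to 161 in the 3 groups. Smooth muscle medians ran in the reverse of the white fat order in each group, at 0.53, -0.44 and 0.23 in sham, -0.25, 0.28 and 0.66 in BPH and -0.15, -0.23 and -0.48 in BPH+ghrelin. Fibroblast medians did so in sham (0.21, -0.84 and 0.07) and in BPH (0.18, 0.41 and 0.42) and were -0.24, -0.12 and -0.10 in BPH+ghrelin. The part of these cells in the white fat values was not tested. Sham 3, BPH 2 and BPH+ghrelin 2 lay between the other arrays of their group for 72.9%, 71.0% and 68.7% of all genes. A list is thus likely to run either in the white fat order or in its reverse, so that these orders alone do not link a list to white fat.

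**Figure D3:**
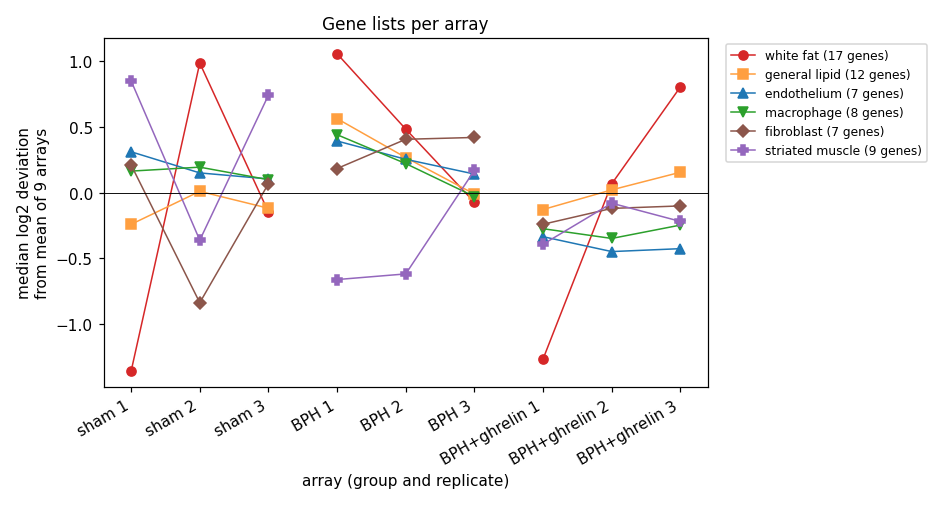
Median log2 deviation of the genes of each list from their mean over the 9 arrays (vertical axis) for every array (horizontal axis), with lines joining arrays of a group. The white fat line falls to -1.36 in sham 1 and -1.27 in BPH+ghrelin 1, where the endothelial medians are 0.31 and -0.34.

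The comparison of BPH with sham asked what castration with androgen replacement changed. Of the 30 members tested, 3 differed at an adjusted p below 0.05, 1 higher and 2 lower, against 4.34% of all 19552 genes tested (2.16% higher and 2.18% lower). Cidea and Thrsp were lower in BPH and Dgat1 was higher, and 1 of these, Thrsp, is among the 17 white fat members. The white fat median difference was 0.78 log2 units, with 13 of 17 genes above 0, Aqp7 among them, and the general lipid median was 0.52, with 10 of 12 above 0, against a median of 0.04 and 53.7% above 0 over all genes tested. Of the members, 8 (26.7%), Aqp7 among them, did not overlap between the groups, against 31.3% of all genes.

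Cidea, a CIDE protein of droplet fusion that is abundant in brown fat and also found in secretory glands, was 9.06, 10.17 and 9.65 in sham, 7.54, 7.52 and 7.51 in BPH and 8.49, 7.97 and 6.74 in BPH+ghrelin. The sham rats lay above all others without overlap. The difference between BPH and sham was -2.10 ± 0.44 (SE, 95% interval -3.11 to -1.10), 4.30-fold lower, with an adjusted p of 0.0400 in limma with Benjamini-Hochberg adjustment. A second Cidea probe, well above background on all 9 arrays, gave a difference of -1.55.

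Thrsp, a regulator of fatty acid synthesis in lipogenic tissues, was 7.48, 9.02 and 8.14 in sham, 6.85, 6.37 and 5.64 in BPH and 6.88, 7.11 and 7.37 in BPH+ghrelin. All sham rats were above all others. The difference between BPH and sham was -1.92 ± 0.42 (SE, 95% interval -2.89 to -0.96), 3.80-fold lower (adjusted p = 0.0445, limma). Dgat1, one of the enzymes of the last step of triglyceride synthesis, was 8.63, 8.27 and 8.65 in sham, 9.10, 9.16 and 9.24 in BPH and 9.31, 9.30 and 9.31 in BPH+ghrelin. It was lowest in all sham rats, and BPH exceeded sham by 0.65 ± 0.13 (SE, 95% interval 0.34 to 0.95), 1.57-fold (adjusted p = 0.0381, limma). Dgat2, the other enzyme of that step, ran from 6.86 to 7.49 in sham and from 7.51 to 7.85 in BPH, a difference of 0.55 that did not pass (adjusted p = 0.121, limma).

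**Figure D4:**
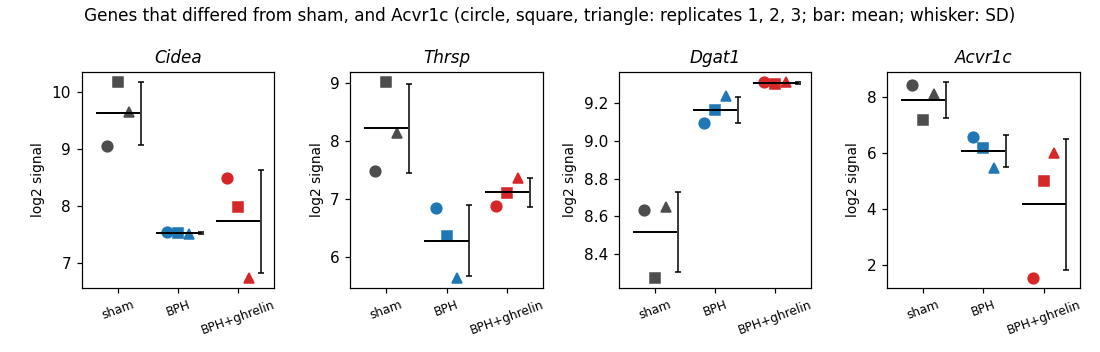
Log2 signal of Cidea, Thrsp, Dgat1 and Acvr1c by group, with each rat as a symbol (circle, square and triangle for replicates 1, 2 and 3), the mean as a bar and the SD as a whisker (n = 3). The sham rats lie above the BPH rats for Cidea, Thrsp and Acvr1c and below them for Dgat1, with no overlap. The Acvr1c difference between BPH and sham did not pass.

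None of the 3 calls held when any single BPH rat was left out. Without BPH 1, 2 or 3 the adjusted p was 0.0806, 0.158 and 0.108 for Cidea, 0.0509, 0.164 and 0.119 for Thrsp and 0.0649, 0.168 and 0.104 for Dgat1, and leaving out sham 3 also ended all of the calls (adjusted p of 0.129, 0.133 and 0.101). Leaving out sham 2 ended the calls of Cidea (adjusted p = 0.069, limma) and Thrsp (adjusted p = 0.0587, limma). Over all of these omissions the differences stayed between -2.39 and -1.83 for Cidea, -2.29 and -1.52 for Thrsp and 0.52 and 0.71 for Dgat1. With slide as a fixed block the differences were -3.23, -1.60 and 0.71 with adjusted p of 0.419, 0.838 and 0.695, and with slide as a random block they were -1.80, -2.03 and 0.67 with adjusted p of 0.00646, 0.00318 and 0.00316. The fixed-block differences link sham and BPH only through the BPH+ghrelin arrays, of which BPH+ghrelin 1 alone was on slide 1. The summed prostate epithelial signal given above also separated sham from BPH, whereas the median of those genes did not. Of 9 striated muscle genes 6 were below 0 and Ckm and Tnni2 were called lower, with a summed signal of 626 to 1107 in sham and 421 to 711 in BPH. The mesothelial list had a median of -1.03, with 2 of 4 genes below 0 and Itln1 called lower, and all 3 lymphoid genes were below 0, with Cd52 called lower. All 7 fibroblast genes were above 0, with a median of 0.34 and none called. Of 7 macrophage genes 5 were above 0 and Adgre1 was called higher. The part of these cells in the differences was not tested.

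The largest differences between BPH and sham beside Cidea and Thrsp were those of Adipoq, Cidec and Car3, and they did not pass. Adipoq differed by 2.19 ± 3.17 (SE, 95% interval -5.08 to 9.47, adjusted p = 0.677, limma), Cidec by 2.05 ± 0.92 (adjusted p = 0.198) and Car3 by 2.05 ± 1.54 (adjusted p = 0.414). The Cidec value rests on 2 sham arrays that were not well above background, and it ran from 0.25 to 3.63 over the alternative settings. Without sham 1 the Adipoq difference turned to -0.46, the Car3 difference fell to 0.86 and the white fat median to 0.23.

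The comparison of BPH+ghrelin with BPH asked what ghrelin changed in the enlarged prostate. None of the 30 members differed at an adjusted p below 0.05 in limma, against 1.48% of all 19749 genes tested, and 3 members had an unadjusted p below 0.05, against 21.1% of all genes. These 3 were lower with ghrelin, Cd36 by a difference of -1.22 (adjusted p = 0.109, limma), Aoc3 by -0.77 (adjusted p = 0.154) and Mgll by -0.78 (adjusted p = 0.194). The white fat median difference was -0.77, with 2 of 17 genes above 0, and the general lipid median was -0.28, with 4 of 12 above 0, against 0.02 and 51.7% above 0 over all genes. Of the members, 4 (13.3%) did not overlap between the groups, against 39.2% of all genes.

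The members with the largest differences between BPH+ghrelin and BPH were Adipoq at -2.995 ± 3.17 (SE, 95% interval -10.3 to 4.28, adjusted p = 0.614, limma), Car3 at -2.09 ± 1.54, Acvr1c at -1.90 ± 1.01, Rbp4 at -1.58 ± 1.95 and Lpl at -1.40 ± 0.86. Their adjusted p ran from 0.316 to 0.669 (limma). Their intervals all held 0, and those of Adipoq and Rbp4 were wide enough to hold large changes in either direction. Without BPH+ghrelin 1 the Adipoq difference became 0.61, that of Rbp4 0.65 and the white fat median 0.07, and those of Car3, Lpl and Acvr1c shrank to -0.34, -0.36 and -0.58. Within slide 1, which held the 3 BPH arrays and BPH+ghrelin 1 alone, the white fat median was -2.34.

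Genes of several other cell types had differences below 0 in this comparison as well. Of the 6 endothelial genes tested 5 were below 0 and 1, Cldn5, was lower at an adjusted p below 0.05. The summed signal of the 7 endothelial genes tested in any comparison was 890 to 1366 in BPH and 804 to 936 in BPH+ghrelin. Of the 7 macrophage genes tested 6 were below 0 and 2, C1qa and Mrc1, passed. The summed signal of the 8 macrophage genes tested in any comparison was 4362 to 6112 in BPH and 3373 to 3467 in BPH+ghrelin. Of 7 fibroblast genes 6 were below 0, with a median of -0.69, and Lum passed, and their summed signal was 12622 to 20350 in BPH and 11331 to 16767 in BPH+ghrelin. All 6 smooth muscle genes were below 0, with a median of -0.43, and Myh11 passed, with a summed signal of 16777 to 32447 and 16329 to 17839. Vessel and macrophage cells also express Cd36, Fabp4 and Lpl, and the part of these cells in the values of those genes was not tested.

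The comparison of BPH+ghrelin with sham shares its arrays with the other comparisons and is not independent of them. Of the 29 members tested, 2 differed, 1 higher and 1 lower, against 6.29% of all 19197 genes tested (2.99% higher and 3.3% lower). Cidea was lower by a difference of -1.89 ± 0.44 (SE, 95% interval -2.90 to -0.89, adjusted p = 0.0438, limma), 3.71-fold, with a second probe at -1.69. Dgat1 was higher by 0.79 ± 0.13 (SE, 95% interval 0.49 to 1.09, adjusted p = 0.0160, limma), 1.73-fold. The white fat median was -0.20, with 7 of 16 genes above 0, and the general lipid median -0.00, with 6 of 12 above 0, against 0.04 and 54.4% above 0 over all genes, and 9 members (31.0%) did not overlap, against 30.4% of all genes.

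Both calls depended on single rats. Leaving out sham 2 or 3 or BPH+ghrelin 2 or 3 ended the Cidea call (adjusted p of 0.0668, 0.137, 0.127 and 0.0684), and leaving out sham 3 or BPH+ghrelin 1, 2 or 3 ended the Dgat1 call (adjusted p of 0.0528, 0.0558, 0.0854 and 0.0512). Within slide 2, which held 2 arrays of each group, the differences were -2.26 for Cidea and 0.86 for Dgat1. With slide as a fixed block over all arrays they were the same and both calls were lost (adjusted p of 0.157 and 0.151), and with slide as a random block the Cidea call was lost (adjusted p = 0.0506, limma). Acvr1c had the largest difference, -3.74 ± 1.01 (SE, 95% interval -6.06 to -1.42), and did not pass (adjusted p = 0.0683, limma), but did so in 4 of 17 alternative settings. Without BPH+ghrelin 1 its difference was -2.42.

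Thrsp (-1.10, adjusted p = 0.158, limma), Pck1 (1.06, adjusted p = 0.577) and Cd36 (-0.91, adjusted p = 0.151) completed the 5 largest differences between BPH+ghrelin and sham. Pck1 turned to -0.13 without sham 1. Adipoq differed by -0.80 ± 3.16 (adjusted p = 0.909, limma), and its sign changed when sham 2, sham 3 or BPH+ghrelin 1 was left out, to 0.92, 0.14 and 2.81. All 5 endothelial genes tested were below 0 here and 1, Pecam1, passed.

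Other genes of lipid storage, chosen as a list of 45 that excludes the members, were tested in the same fit. Between BPH and sham 1 of 33 tested passed (against 4.34% of all genes), Abhd5, the cofactor of the lipase Pnpla2, which was higher by 0.88 (adjusted p = 0.0319, limma). Between BPH+ghrelin and BPH 0 of 34 passed (against 1.48%), with 8 at an unadjusted p below 0.05 (against 21.1%). Between BPH+ghrelin and sham 2 of 33 passed (against 6.29%), Fasn, fatty acid synthase, which was higher by 0.59 (adjusted p = 0.0493), and Vldlr, a lipoprotein receptor, which was lower by a difference of -1.51 (adjusted p = 0.0115). The medians of the list were 0.09, -0.02 and 0.10 in the 3 comparisons.

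Of the brown fat genes, Ucp1, the uncoupling protein that defines the cell, was not well above background on any of the 9 arrays, at 0.64 to 1.08. Among 12 further brown fat genes, 6 were tested between BPH and sham, and the only call was that of Dio2, the enzyme that activates thyroid hormone (adjusted p = 0.0230, limma). No sham array was well above background for Dio2 and all 3 BPH arrays were, so that it was tested only through the group where it was bright. The data bound its difference at only 1.01-fold, and the call is not read as a change. None of the 7 tested between BPH+ghrelin and BPH and none of the 5 tested between BPH+ghrelin and sham passed, with 2 and 1 at an unadjusted p below 0.05 (against 21.1% and 23.7% of all genes).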

How the data were processed

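Total RNA of 9 prostates was amplified, labelled with Cy3 and hybridised to Agilent one-colour rat arrays. The authors deposited the scanner's files, whose spot values are intensity on a linear scale, background-subtracted by Agilent Feature Extraction. The authors also deposited a table of log2 values, quantile normalized in GeneSpring GX, which served as an alternative.

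Control spots and spots with outlier flags were left out, log2 processed signals were averaged over the spots of a probe, and arrays were quantile normalized (R 4.3.3, limma 3.58.1). Probes were named through their RefSeq transcript, giving 17998 of 30356 probes a symbol. A gene with several probes was represented by 1 probe, and the others are given where they were read. A test needed a probe that the scanner software called well above background in 3 or more of the 6 arrays of that comparison. All 9 arrays entered one limma fit with lmFit and eBayes, and p-values were adjusted by the Benjamini-Hochberg method over all genes tested. The number of arrays limits the precision. The p-values set a group difference against the spread between rats within groups, estimated over all 9 arrays. For single values, an exact permutation test of 3 against 3 arrays cannot go below a two-sided p of 0.1, and none was used.

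The members and all lists were chosen with earlier results of these data known. Values per array are given for members that passed, for the 6 defining fat cell markers and for the 5 members with the largest difference in each comparison. Values of Fabp4, Aqp7, Pparg and Adrb3 were added after they had been seen. The fit was tested on simulated data. Alternatives were 75th percentile scaling, normexp background correction (offset 50, on the median spot signal and local background), the filter on dim probes, the mean over probes, the deposited table, eBayes with trend, the replicate number or slide as a block, the 6 arrays compared alone, and each array left out. Leaving out sham 1 and BPH+ghrelin 1 together, and setting dim signals to the background level for ranges, were chosen after seeing the data.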

Additional observations from a re-analysis of the deposited data

How the results depend on the processing

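The number of members that passed depended on the setting. For BPH against sham it was 3, and it was 0 without the filter on dim probes, 0 with a replicate block, 0 with slide as a fixed block, 8 with slide as a random block, 1 when fitted on the 6 arrays compared and 0 to 5 when single arrays were left out. For BPH+ghrelin against BPH it was 0 in all settings. For BPH+ghrelin against sham it was 2, and it was 4 with normexp background correction, 1 without the filter, 1 with a replicate block, 0 with slide as a fixed block, 1 with slide as a random block, 1 on the 6 arrays compared, 1 without sham 1 and BPH+ghrelin 1 together and 0 to 3 when single arrays were left out. The replicate numbers do not pair the rats: same-numbered arrays had deviations that correlated at -0.13 to 0.26, with 1 of 9 pairs over 0.1.

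The white fat median was 0.78, -0.77 and -0.20 in the 3 comparisons and unchanged with the replicate block. It was 2.59 (BPH against sham) and -2.34 (BPH+ghrelin against BPH) with slide as a fixed block, the latter also within slide 1, and 0.51 in BPH+ghrelin against sham, where normexp also turned its sign, to 0.015. The values of 2.59 and -2.34 both rest on BPH+ghrelin 1, the only BPH+ghrelin array on slide 1. With slide as a random block the white fat median was 0.16 in BPH against sham. It ran over 0.23 to 1.26, -1.33 to 0.07 and -0.72 to 0.46 when single arrays were left out. Signs turned for Adipoq in BPH against sham (-0.44 with slide as a random block, -0.46 without sham 1 and BPH+ghrelin 1, and -0.46 to 3.91 over the single omissions) and in BPH+ghrelin against BPH (0.61 without both, and -5.06 to 0.61 over the single omissions). Over all alternatives Adipoq reached 13.96 in BPH against sham and -10.2 in BPH+ghrelin against BPH. In BPH+ghrelin against sham Adipoq was 0.027 with normexp, 3.75 with slide as a fixed block and within slide 2, 0.15 without both arrays and -3.46 to 2.81 over the single omissions. Rbp4 in BPH+ghrelin against BPH was 0.65 without both arrays and -2.98 to 0.65 over the single omissions, and Pck1 in BPH+ghrelin against sham ran from -0.13 to 1.96. The cause was not tested.

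Limits are the 3 arrays per group, the slides, and dim probes, which leave Lep, Cebpa, Ucp1 and Plin5 without a test. No slide held both sham and BPH arrays, and BPH and BPH+ghrelin shared a slide only through BPH+ghrelin 1.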
